A study of Mus musculus with 28 samples.

Results

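Whole kidney lacking both Fcgr2b and Rhbdf2 was set against wild-type kidney, to measure what remains changed when both genes are missing. The comparison takes the 4 kidney libraries whose genotype label reads FcR2b-/- Rhbdf2-/-, called double mutant here, and the 4 labelled WT, which makes 8 of the 28 libraries of the study. Polyadenylated RNA from whole, perfused kidneys was sequenced, and the deposited table gives 12315 genes. Wild-type and double-mutant mice, and the Rhbdf2-/- and Fcgr2b-/- mice used beside them (4 kidney libraries each), were all female C57BL/6 littermates of 7 to 9 months with no further treatment named. No Cre line, promoter or inducible allele is named for either deletion, and the deleted part of each gene is not given. The genotype label of the double-mutant libraries names both genes and was followed, although their titles mention the Rhbdf2 knockout alone. Whether every library is a mouse of its own is not stated, and p-values therefore rest on a spread between libraries that may be technical. The remaining 12 libraries, of sorted kidney macrophages, are used for values only.

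Fcgr2b encodes the inhibitory receptor for IgG on B cells and myeloid cells, and mice without it develop antibody-driven, lupus-like disease with glomerulonephritis. Rhbdf2 encodes iRhom2, an inactive rhomboid protein that brings the protease ADAM17 to the surface of myeloid cells, where ADAM17 releases TNF and ligands of the EGF receptor such as HB-EGF. In inflamed kidney, type I interferons act through a complex that holds IRF9 on response elements in target promoters, and interferon gamma raises antigen presentation and a family of GTPases. Macrophages, dendritic cells and T cells enter the interstitium and the glomerulus, while injured tubule cells make markers such as Havcr1 and Lcn2 and lose transporters of the proximal tubule.

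The 8 libraries held 30374108 to 41621289 reads in listed genes. Each kidney genotype was run on a lane of its own (lane 5 for wild-type and lane 8 for double mutant) and the effects of lane and of genotype cannot be told apart. Rhbdf2 was at 12.9 CPM (reads scaled to the library total) in each wild-type library and at 16.1, 19.7, 18.2 and 9.29 CPM in double-mutant replicates 1 to 4, which is a log2 change of 0.23 with an SE of 0.17 (limma adjusted p = 0.465). Fcgr2b was at 34.3, 29.3, 34.5 and 35.8 CPM in wild-type replicates 1 to 4 and at 20.7, 26.1, 41.5 and 20.7 CPM in the double mutant, which is a log2 change of -0.34 with an SE of 0.17 (limma adjusted p = 0.246). Both genes overlapped between the groups, and since a total over the gene does not show the deleted part, these values do not check the labels. The labelled tissue was checked on kidney markers: Umod, the main secreted protein of the thick ascending limb, ranged from 4801 to 6239 CPM over the 8 libraries.

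Of the 12315 genes, 898 were called at a limma adjusted p below 0.05 (7.29%), 557 of them higher in the double mutant (4.52%) and 341 lower (2.77%). A further rule counts genes whose 4 double-mutant values all lie outside the wild-type range: 2206 genes did not overlap (17.9%), 812 higher (6.59%) and 1394 lower (11.3%). The authors' deposited table calls 1126 genes at an FDR below 0.05, 759 of them higher, and 889 of these were called with the same sign here. The median log2 change of all genes was -0.03. Of the called genes, 327 rose and 10 fell by more than 1 on the log2 scale, as the plot of change against level shows. Among the genes picked by the naming rule the 12 largest rises spanned log2 changes from 2.41 to 3.67, and the 12 largest falls from -0.76 to -1.93. These rises and falls were picked only from genes without overlap, so their lack of overlap, in every library, followed from that choice. The number of calls depended on single libraries. It was 121 without wild-type replicate 1, 155 without wild-type replicate 4, 185 without double-mutant replicate 2, 190 without double-mutant replicate 3, 381 without wild-type replicate 3, 417 without double-mutant replicate 1, 557 without wild-type replicate 2, 589 without Rhbdf2-/- replicate 3 and 1706 without double-mutant replicate 4. It also depended on the fit. With the 2 groups alone 416 genes were called higher (3.38%) and 672 lower (5.46%). Library weights, which count a variable library for less, gave 1763 (14.3%) and 2171 (17.6%). With voom on recovered reads the counts were 237 (1.92%) and 242 (1.97%). Counts of list members under these 3 fits are given below where they move by more than 1.5 times, in this order.

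**Figure D1:**
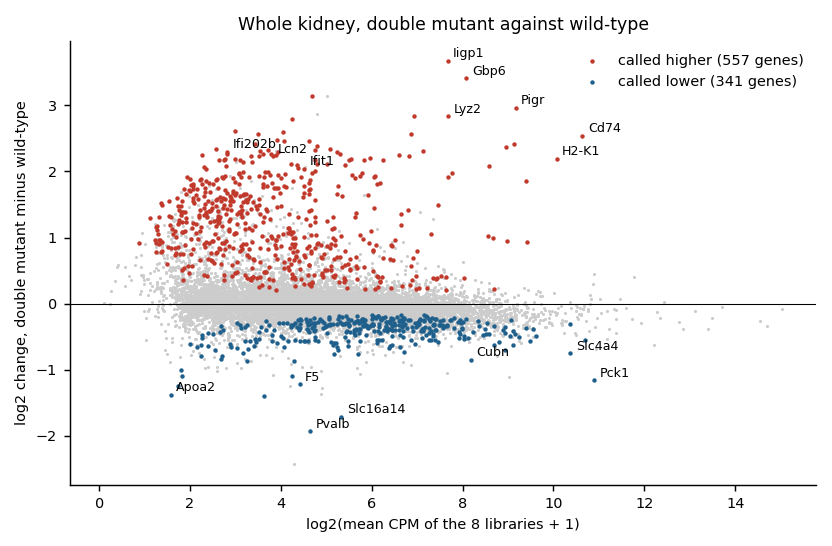
Each point is a gene of whole kidney, with its mean level over the 8 libraries on the x axis, as log2(mean CPM + 1), and the log2 change on log2(CPM + 1), double mutant minus wild-type, on the y axis. Red marks the 557 genes called higher, blue the 341 called lower and grey the rest; among called changes of more than 1, 327 are rises and 10 are falls.

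Double-mutant replicate 4, the library titled iR2ko_65, stood apart from the other three. Of the 1094 genes called higher when it was left out (8.88% of all genes), replicate 4 lay above every wild-type library in 452 (41.3%) and below every one in 216 (19.7%), where replicates 1 to 3 lay above in 99.1% to 99.8%. The median difference of those genes from the wild-type mean was 0.09 on the log2 scale in replicate 4 and 0.85, 1.11 and 1.15 in replicates 1, 2 and 3. Of the 612 genes called lower without it (4.97%), replicate 4 lay below every wild-type library in 391 (63.9%), and the other three in 98.9% to 100%. Replicates 1 to 3 took part in choosing both sets of genes, so their high shares followed from that choice. The same count was not made with another library left out. Library weights, fitted on all genes, were 1.24, 1.45, 1.09 and 0.227 in double-mutant replicates 1 to 4. Fcgr2b-/- replicates 2 and 4 had low weights too, 0.367 and 0.167. Over all genes, double-mutant replicate 4 lay above every wild-type library in 30.7% and below in 34.1%. Its reads from mitochondrially encoded genes were 14.3% of the total, against 9.19% to 9.73% in the other three and 10.4% to 11.8% in wild-type. Fcgr2b-/- replicate 4 was at 14.5%. The part of the mitochondrial share in the results was not tested. Counts of list members that follow are given with all 4 libraries and again without double-mutant replicate 4.

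Genes induced by type I interferon rose as a group. Of 34 genes on the list, 32 were measured, 27 rose (84.4%, against 4.52% of all genes), 0 fell and 5 were not called, and the median log2 change was 1.43. Without double-mutant replicate 4 the count was 28 and the median 1.71. Ifit1, which binds viral RNA, was at 6.66, 7.63, 8.78 and 6.78 CPM in wild-type replicates 1 to 4 and at 45.6, 42.9, 38.7 and 16.9 CPM in double-mutant replicates 1 to 4. The groups did not overlap, and replicate 4 was the lowest double-mutant library. Means were 7.46 ± 0.98 and 36.0 ± 13.1 CPM (SD, n = 4), and the log2 change of Ifit1 was 2.04 (SE 0.32, limma adjusted p = 0.00652). Rtp4, a chaperone for receptors that interferon induces, was at 4.76 to 7.13 CPM in wild-type and at 28.6, 31.2, 34.0 and 12.4 CPM in the double mutant (log2 change 1.96, SE 0.31, limma adjusted p = 0.00681). Irf9, the DNA-binding subunit of the complex that type I interferon activates, was at 19.4 to 22.0 CPM in wild-type and at 48.1, 56.6, 60.9 and 30.2 CPM in the double mutant (log2 change 1.14, SE 0.19, limma adjusted p = 0.01). Ifi204, a DNA sensor, and Ifit2 rose by 1.81 and 1.32 on the log2 scale (limma adjusted p = 0.0112 for each).

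Isg15, a ubiquitin-like protein chosen after its values were seen, was at 3.71 to 5.24 CPM in wild-type and at 26.2, 27.0, 18.9 and 6.57 CPM in the double mutant (log2 change 1.78, SE 0.38, limma adjusted p = 0.0181). For Isg15, double-mutant replicates 1 and 2 were the highest libraries. The 5 members that missed the threshold were Isg20, Rsad2, Cmpk2, Ifi44 and Ifi27l2a, with log2 changes of 0.41, 0.33, 0.42, 0.68 and 1.06 (limma adjusted p = 0.425, 0.258, 0.156, 0.123 and 0.0853). The count of called members was 13 without wild-type replicate 1, 14 without double-mutant replicate 2, 15 without wild-type replicate 4 and 16 without double-mutant replicate 3.

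Promoter windows show how far these genes share the letters of an interferon-stimulated response element, and 6 stretches of called members are printed for that reason. RefSeq windows (GRCm38.p6, 250 bases before to 50 after a start) were found for 9288 of the tested genes, and the motif GAAANNGAAA was searched on both strands, so that it also reads TTTCNNTTTC; overlapping matches were kept. It was present in at least 1 window of 344 genes (3.7%), of 60 of the 426 genes called higher that had a window (14.1%), and of 6 of the 268 called lower (2.24%). It was in 11 of 21 genes of the type I interferon list (52.4%), in 6 of 6 interferon-induced GTPases, in 5 of 17 genes of MHC class I presentation (29.4%), in 2 of 15 macrophage markers (13.3%) and in 0 of 6 genes of MHC class II presentation. Each stretch below lies upstream of the start, is written 5′ to 3′ on the gene's own strand, and has the matches of the motif in capitals.
Ifit1: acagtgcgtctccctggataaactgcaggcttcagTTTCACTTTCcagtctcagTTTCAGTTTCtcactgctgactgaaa
Ifit3: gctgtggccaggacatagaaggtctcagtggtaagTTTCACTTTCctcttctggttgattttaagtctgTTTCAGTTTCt
Trim30a: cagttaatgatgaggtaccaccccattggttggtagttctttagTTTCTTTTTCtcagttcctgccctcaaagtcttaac
Irgm1: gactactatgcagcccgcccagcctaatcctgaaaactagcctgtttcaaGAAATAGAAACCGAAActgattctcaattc
Irgm2: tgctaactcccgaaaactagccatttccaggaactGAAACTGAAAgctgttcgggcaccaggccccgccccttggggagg
B2m: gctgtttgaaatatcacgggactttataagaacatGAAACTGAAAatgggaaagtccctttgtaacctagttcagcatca
The stretches lie at chr19:34640750-34640829 (plus strand) for Ifit1, chr19:34583338-34583417 (plus strand) for Ifit3, chr7:104465194-104465273 (minus strand) for Trim30a, chr11:48871421-48871500 (minus strand) for Irgm1, chr11:58214878-58214957 (plus strand) for Irgm2 and chr2:122147513-122147592 (plus strand) for B2m. Ifit1, Ifit3 and Irgm1 hold 2 matches each in the stretch shown, those of Irgm1 overlapping. The first match begins 104 bases before the start in Ifit1, 156 in Ifit3, 36 in Trim30a, 30 in Irgm1, 64 in Irgm2 and 139 in B2m. A match is a description of these letters and no binding was measured.

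The interferon-induced GTPases, large and small GTPases that attack membranes of intracellular microbes, included Iigp1, the largest rise under the naming rule. Of 10 measured, 6 rose (60%), 0 fell, and the median log2 change over the 10 was 2.12; without double-mutant replicate 4 all 10 rose and the median was 2.82. Iigp1 was at 10.0, 16.8, 18.6 and 9.64 CPM in wild-type and at 129.4, 359.3, 1056 and 20.8 CPM in double-mutant replicates 1 to 4 (log2 change 3.67, SE 0.83, limma adjusted p = 0.0206). Replicate 3 was highest, replicates 2 and 1 followed, and replicate 4 lay just above the highest wild-type library. Gbp6 had the same order, at 190.5, 556.8, 1288 and 30.3 CPM against 15.7 to 37.9 CPM in wild-type, so its groups overlapped (log2 change 3.41, SE 0.83, limma adjusted p = 0.0269). Irgm1 went from 68.5 ± 2.99 to 338.5 ± 268.5 CPM and Irgm2 from 31.7 ± 3.73 to 245.1 ± 236.8 CPM (SD, n = 4; limma adjusted p = 0.0184 and 0.0275), and Gbp2 from 17.4 ± 5.34 to 225.7 ± 241.3 CPM (limma adjusted p = 0.0285). Gbp3, Gbp5, Gbp7 and Gbp9 missed the threshold, with log2 changes of 0.88, 2.07, 1.08 and 0.99 (limma adjusted p = 0.265, 0.0527, 0.0957 and 0.053). Averaged over the list on log2(CPM + 1), the wild-type libraries ranged from 3.19 to 3.74 and double-mutant replicates 1 to 4 were at 5.18, 6.24, 7.33 and 3.61. The type I interferon list had no such order among replicates 1 to 3, which were at 4.84, 4.92 and 4.87, with replicate 4 at 3.70 and wild-type from 3.03 to 3.31. The count of called GTPases was 0 without wild-type replicate 1, wild-type replicate 4 or double-mutant replicate 2, 1 without double-mutant replicate 3, 2 without wild-type replicate 2, and 3 without wild-type replicate 3 or double-mutant replicate 1. It was 0, 10 and 4 with the 2 groups alone, library weights and voom.

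Antigen presentation by MHC class I rose across the pathway. Of 20 measured genes, 18 rose (90%), 0 fell, and the median log2 change was 1.47; without replicate 4 all 20 rose, with a median of 1.94. H2-K1, a classical class I heavy chain, was at 277.8, 299.4, 304.0 and 252.3 CPM in wild-type and at 989.1, 1772, 4312 and 370.7 CPM in double-mutant replicates 1 to 4 (log2 change 2.19, SE 0.50, limma adjusted p = 0.0212). B2m, the light chain, was at 62.2 to 78.4 CPM in wild-type and at 247.8, 368.1, 727.6 and 97.7 CPM in the double mutant (log2 change 1.98, SE 0.43, limma adjusted p = 0.0181). In both genes all 4 double-mutant libraries lay above wild-type, with replicate 3 highest and replicate 4 lowest. Nlrc5, the transactivator of class I genes, went from 6.18 ± 0.86 to 47.7 ± 34.0 CPM (SD, n = 4; log2 change 2.38, SE 0.49, limma adjusted p = 0.0151). The proteasome activator Psme2 and the class I gene H2-Q4 rose by 0.91 and 1.93 on the log2 scale (limma adjusted p = 0.0181 and 0.0182). H2-T22 and Tapbpl missed the threshold at log2 changes of 0.79 and 0.96 (limma adjusted p = 0.127 and 0.0702). Class I heavy chains are near-identical copies in part, and the sources used here do not give how shared reads were counted, so single H2-Q and H2-T values are uncertain. The count was 0 without wild-type replicate 1, wild-type replicate 4 or double-mutant replicate 2, 4 without double-mutant replicate 3, 6 without wild-type replicate 2 or 3, and 8 without double-mutant replicate 1. It was 3, 20 and 6 with the 2 groups alone, library weights and voom.

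The MHC class II genes, which professional antigen-presenting cells use, gave 7 rises among 9 measured (77.8%), 0 falls and a median log2 change of 2.19, and 8 rises with a median of 2.91 without replicate 4. Cd74, the invariant chain, was at 278.2, 303.6, 363.5 and 298.4 CPM in wild-type and at 1434, 2906, 6756 and 373.5 CPM in double-mutant replicates 1 to 4 (log2 change 2.54, SE 0.61, limma adjusted p = 0.0258). Replicate 4 exceeded the highest wild-type library by little, and replicate 3 was the highest. H2-Ab1 was at 106.0 to 146.1 CPM in wild-type and at 512.7, 1011, 2295 and 146.6 CPM in the double mutant (log2 change 2.42, SE 0.58, limma adjusted p = 0.0241). H2-Aa and H2-Eb1, further chains of the receptor, and H2-DMb1, which loads peptide, rose by 2.38, 2.09 and 1.98 (limma adjusted p = 0.0212, 0.0229 and 0.0161). Ciita, the transactivator of this group, was at 1.52 to 1.89 CPM in wild-type and at 4.02, 11.5, 22.4 and 1.02 CPM in the double mutant, overlapping wild-type (log2 change 1.49, limma adjusted p = 0.108), and H2-Ob was at a log2 change of 0.52 (limma adjusted p = 0.477). The count of 7 became 0 without wild-type replicate 1, wild-type replicate 4 or double-mutant replicate 2, 1 without double-mutant replicate 3, 3 without wild-type replicate 3 and 4 without wild-type replicate 2. It was 2, 8 and 5 with the 2 groups alone, library weights and voom.

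**Figure D2:**
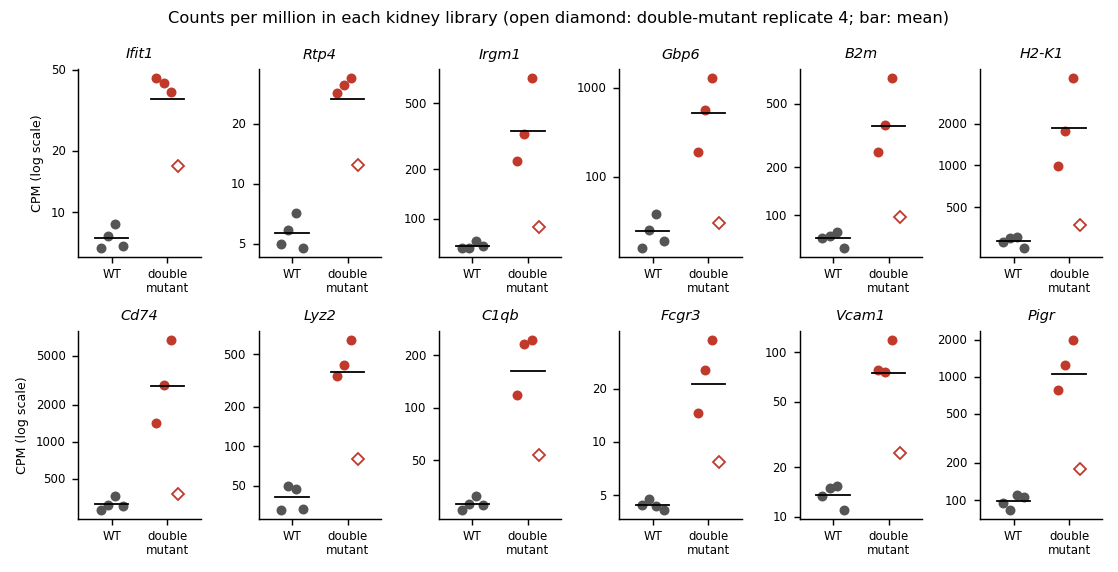
CPM on a log axis for 12 genes that rose, with 4 wild-type and 4 double-mutant libraries per panel and a bar at each group's mean. The open diamond is double-mutant replicate 4, which lies between the wild-type libraries and the other double-mutant libraries in each panel except Gbp6, where it lies within the wild-type range.

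Macrophage markers rose almost as a whole. Of 22 measured, 20 rose (90.9%), 0 fell, and the median log2 change was 2.22, with 22 of 22 called and a median of 2.67 without replicate 4; 11 of the 22 stand on another list too. In bulk tissue, more cells of a type and more RNA per cell cannot be told apart. Lyz2, the lysozyme of myeloid cells, was at 32.7, 49.5, 47.6 and 33.2 CPM in wild-type and at 339.9, 411.9, 644.5 and 79.3 CPM in double-mutant replicates 1 to 4 (log2 change 2.83, SE 0.54, limma adjusted p = 0.0124). The groups did not overlap, and replicate 4 was again the lowest double-mutant library. C1qb, a chain of the complement component that resident macrophages make, was at 26.0 to 31.1 CPM in wild-type and at 118.5, 232.5, 245.1 and 53.9 CPM in the double mutant (log2 change 2.26, SE 0.41, limma adjusted p = 0.0112). Ms4a6d rose from 1.03 ± 0.40 to 12.9 ± 6.64 CPM (SD, n = 4; log2 change 2.61, limma adjusted p = 0.0045), and Ms4a7 from 2.96 ± 0.23 to 21.4 ± 10.7 CPM (log2 change 2.33, limma adjusted p = 0.0101). The protease Ctss rose by 2.56 (limma adjusted p = 0.0104). Emr1, which encodes the surface marker F4/80 and was chosen after its values were seen, went from 11.1 ± 0.87 to 65.5 ± 36.7 CPM (log2 change 2.26, limma adjusted p = 0.0137). The 2 markers that missed the threshold were Csf1r, the receptor for macrophage colony-stimulating factor, at a log2 change of 0.71 (limma adjusted p = 0.0524) with groups that did not overlap, and Gpnmb at 1.63 (limma adjusted p = 0.058). The list's mean on log2(CPM + 1) was 3.37 to 3.58 in wild-type and 5.57, 6.17, 6.22 and 4.14 in double-mutant replicates 1 to 4. The count was 9 without wild-type replicate 1, 11 without double-mutant replicate 2, and 12 without wild-type replicate 4 or double-mutant replicate 3. It was 19, 22 and 11 with the 2 groups alone, library weights and voom.

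Receptors that bind IgG or signal beside it rose in 8 of 11 measured genes (72.7%), with 0 falls, a median log2 change of 1.83 and 9 rises without replicate 4; the count was 5 without wild-type replicate 1 and 7, 9 and 5 with the 2 groups alone, library weights and voom. Fcgr3, an activating IgG receptor, was at 4.42, 4.77, 4.38 and 4.13 CPM in wild-type and at 14.5, 25.3, 37.7 and 7.73 CPM in double-mutant replicates 1 to 4 (log2 change 1.83, SE 0.34, limma adjusted p = 0.0118). All 4 double-mutant libraries lay above wild-type. Fcgr1, the high-affinity IgG receptor, went from 2.19 ± 0.35 to 15.9 ± 8.04 CPM (SD, n = 4; log2 change 2.23, limma adjusted p = 0.0112). The inhibitory receptors Pirb and Lilrb4 rose by 1.99 and 1.90 (limma adjusted p = 0.0111 and 0.0112), and the kinase Lyn by 0.88 (limma adjusted p = 0.0118).

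Innate sensing and effector genes moved the same way. Of 17 Toll-like receptors and their partners, 11 rose (64.7%) and 0 fell, with a median log2 change of 1.09 and 14 rises without replicate 4. Tlr13, an endosomal receptor for bacterial RNA, was at 1.86 to 2.46 CPM in wild-type and at 11.2, 11.2, 10.2 and 5.33 CPM in the double mutant (log2 change 1.71, SE 0.26, limma adjusted p = 0.00626). Tlr7, the receptor for single-stranded RNA, was at 3.35 to 3.98 CPM in wild-type and at 10.4, 11.0, 8.41 and 6.00 CPM in the double mutant (log2 change 1.09, SE 0.23, limma adjusted p = 0.0169), and Tlr8 rose by 1.88, Tlr2 by 1.59 and Tlr3 by 0.59 (limma adjusted p = 0.0131, 0.0147 and 0.0161). Neither group overlapped the other in any of these 5 receptors. Of 7 genes of the phagocyte NADPH oxidase, 5 rose (71.4%) with all libraries and 5 without replicate 4; Cybb, its catalytic subunit, went from 17.7 ± 2.38 to 80.0 ± 43.1 CPM (SD, n = 4; log2 change 1.90, limma adjusted p = 0.0172). Of 20 complement genes, 7 rose (35%) and 12 without replicate 4. C4b was at 3.75, 3.40, 9.50 and 6.96 CPM in wild-type and at 34.4, 40.7, 76.2 and 13.3 CPM in the double mutant (log2 change 2.47, SE 0.41, limma adjusted p = 0.01), and the receptor C5ar1 rose by 1.58 (limma adjusted p = 0.01). C3, the central complement component, had wild-type libraries from 28.1 to 142 CPM and double-mutant libraries from 27.9 to 339.4 CPM and was not called (log2 change 1.39, limma adjusted p = 0.204); it was chosen after its values were seen. The count of called Toll-like receptor genes was 2 without wild-type replicate 1, wild-type replicate 4 or double-mutant replicate 2, 3 without double-mutant replicate 3, 6 without double-mutant replicate 1 and 7 without wild-type replicate 2 or 3. That of the oxidase was 0 without wild-type replicate 1 or 4 or double-mutant replicate 2 or 3, and 1 without wild-type replicate 2 or 3 or double-mutant replicate 1. Under the 2 groups alone, library weights and voom the receptor count was 9, 16 and 3, the oxidase count 4, 5 and 1 and the complement count 7, 14 and 5.

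Markers of other leukocytes rose in part. Of 14 T and NK cell markers, 6 rose (42.9%) and 0 fell, with a median log2 change of 1.66, and without replicate 4 all 14 rose with a median of 2.23. Cd4, the coreceptor of helper T cells, was at 1.36, 1.55, 2.66 and 1.81 CPM in wild-type and at 7.86, 14.7, 20.5 and 3.10 CPM in double-mutant replicates 1 to 4 (log2 change 1.91, SE 0.43, limma adjusted p = 0.0205). Cd3g, a chain of the T cell receptor complex, was at 0.736 to 1.35 CPM in wild-type and at 5.16, 11.6, 21.6 and 1.19 CPM in the double mutant, so that replicate 4 lay within wild-type (log2 change 1.92, SE 0.53, limma adjusted p = 0.0422). Il7r, Nkg7 and Skap1 rose by 1.71, 1.73 and 1.07 (limma adjusted p = 0.0216, 0.0384 and 0.0234). Of 8 monocyte and neutrophil markers measured, 3 rose (Plac8, Csf3r and Chil3, by 1.41, 1.69 and 0.92), and 5 without replicate 4. Of 6 dendritic cell markers, 2 rose, and 5 without replicate 4: Clec9a, a marker of cross-presenting dendritic cells, was at 2.31 to 2.77 CPM in wild-type and at 5.44, 11.8, 20.1 and 3.81 CPM in the double mutant (log2 change 1.41, limma adjusted p = 0.0325), and Itgax rose by 1.61 (limma adjusted p = 0.0469). Of 8 B and plasma cell markers, 0 were called in either direction, with all libraries or without replicate 4, and the median log2 change was 0.34. Of the 8, 0 had an unadjusted limma p below 0.05, where 2932 of all 12315 genes did. Voom called 0 of the 8, and 2 were called higher with library weights. Igj, the joining chain of secreted antibody, was at 11.6 to 29.9 CPM in wild-type and at 9.47 to 62.5 CPM in the double mutant (log2 change 0.33, SE 1.34, limma adjusted p = 0.912). The T and NK count was 0 without wild-type replicate 1 or 4 or double-mutant replicate 2 or 3, 1 without wild-type replicate 3, 2 without double-mutant replicate 1, and 3 without wild-type replicate 2 or Rhbdf2-/- replicate 2 or 3. The monocyte and neutrophil count was 1 without wild-type replicate 1, 3 or 4 or double-mutant replicate 1, 2 or 3. The dendritic cell count was 0 without any 1 of the wild-type libraries or without double-mutant replicate 2 or 3, and 1 without double-mutant replicate 1, Fcgr2b-/- replicate 1 or any 1 of the Rhbdf2-/- libraries. Under the 2 groups alone, library weights and voom the T and NK count was 2, 14 and 1, the monocyte and neutrophil count 2, 8 and 1 and the dendritic cell count 0, 5 and 0.

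Chemokines and the TNF response rose in part. Of 24 chemokines and chemokine receptors, 12 rose (50%) and 0 fell, with a median log2 change of 1.13, and 17 rose without replicate 4. Ccl2 was not analysed here. Ccl9 was at 1.66 to 2.32 CPM in wild-type and at 19.5, 18.8, 14.5 and 3.46 CPM in double-mutant replicates 1 to 4 (log2 change 2.14, SE 0.37, limma adjusted p = 0.0111). Cxcr4 rose by 1.13, Ccl4 by 1.72 and the interferon-induced Cxcl10 by 1.86 (limma adjusted p = 0.00519, 0.0209 and 0.0209), with no overlap in Ccl9 or in any of these 3 genes. Cxcl9 and Ccl5, which draw activated T cells, were at 15.0, 48.9, 138.6 and 2.33 CPM and at 6.88, 16.2, 79.5 and 1.51 CPM in double-mutant replicates 1 to 4, and neither was called (log2 changes 2.87 and 2.31, limma adjusted p = 0.0622 and 0.0703); both were chosen after their values were seen. The count was 2 without wild-type replicate 1 or 4 or double-mutant replicate 2 or 3, 4 without double-mutant replicate 1, 5 without wild-type replicate 3 and 6 without wild-type replicate 2. It was 7, 19 and 2 with the 2 groups alone, library weights and voom.

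Tnf, the cytokine that ADAM17 cuts from the cell surface, was at 0.382, 0.332, 0.343 and 0.239 CPM in wild-type and at 3.05, 4.16, 3.16 and 0.347 CPM in double-mutant replicates 1 to 4 (log2 change 1.31, SE 0.36, limma adjusted p = 0.0406). Replicate 4 lay within the wild-type range, and without it the log2 change was 1.74 (limma adjusted p = 0.000422). Of 28 genes of the TNF and NF-kB response, 11 rose (39.3%), 0 fell, and the median log2 change was 0.86, with 22 rises without replicate 4. Socs3, a brake on cytokine receptors, was at 3.25 to 4.34 CPM in wild-type and at 17.5, 19.5, 13.1 and 7.31 CPM in the double mutant (log2 change 1.62, SE 0.26, limma adjusted p = 0.00809). Nfkbia, the inhibitor that NF-kB itself induces, was at 25.0, 37.1, 24.2 and 25.0 CPM in wild-type and at 44.4, 49.4, 47.5 and 40.7 CPM in the double mutant, so that all 4 libraries lay above wild-type (log2 change 0.71, SE 0.12, limma adjusted p = 0.01). Vcam1, the adhesion molecule of activated endothelium and tubule, went from 13.7 ± 1.97 to 74.5 ± 38.7 CPM (SD, n = 4; log2 change 2.18, limma adjusted p = 0.0112), and Tnfaip3 rose by 0.97 (limma adjusted p = 0.0209). The count was 3 without wild-type replicate 1 or 4 or double-mutant replicate 2 or 3, 4 without double-mutant replicate 1, and 5 without wild-type replicate 2 or 3. It was 4, 23 and 6 with the 2 groups alone, library weights and voom. In the list 1 gene fell with the 2 groups alone and 2 with library weights, where 5.46% and 17.6% of all genes fell.

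**Figure D3:**
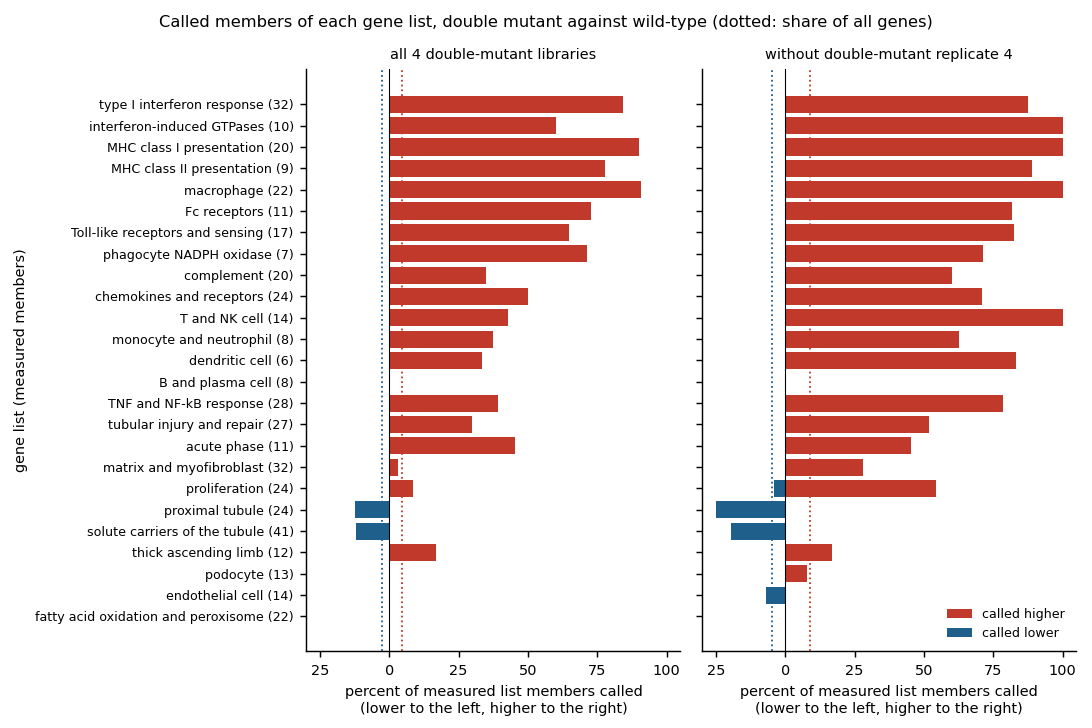
Share of the measured members of 25 gene lists that were called higher (to the right, red) or lower (to the left, blue) in the double mutant, with all 4 libraries on the left and without replicate 4 on the right; dotted lines give the share over all genes. The immune lists reach 84.4% to 90.9% for type I interferon, MHC class I and macrophage genes, and among these 25 lists the proximal tubule markers and the solute carriers have blue bars in both panels.

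Tubular injury and repair genes rose in 8 of 27 (29.6%), with 0 falls and a median log2 change of 0.48, and in 14 without replicate 4. Pigr, the epithelial receptor that carries polymeric antibody into urine, had the second highest rise under the naming rule: 94.2, 83.0, 109.3 and 105.2 CPM in wild-type and 787.4, 1246, 1992 and 176.9 CPM in double-mutant replicates 1 to 4 (log2 change 2.97, SE 0.51, limma adjusted p = 0.0111). Lcn2, a secreted marker of tubule injury, was at 2.30, 5.41, 1.89 and 2.35 CPM in wild-type and at 57.0, 16.2, 14.2 and 5.51 CPM in the double mutant (log2 change 2.23, SE 0.62, limma adjusted p = 0.0442), so that here replicate 1 was the highest. Havcr1, the injury marker KIM-1, followed the same order at 36.8, 8.28, 6.87 and 0.629 CPM against 0.264 to 2.14 CPM in wild-type and was not called (log2 change 2.15, SE 0.71, limma adjusted p = 0.0815; 2.92 and limma adjusted p = 0.00349 without replicate 4). Cd44, a receptor for hyaluronan, rose by 1.91 (limma adjusted p = 0.0229). Sox9 and Krt20, chosen after their values were seen, overlapped wild-type with log2 changes of -0.09 and 0.43 (limma adjusted p = 0.843 and 0.503); Sox9 turned to 0.03 without replicate 4. Of 11 acute phase genes, 5 rose (45.5%), with and without replicate 4. Serpina3g went from 2.59 ± 0.89 to 33.3 ± 28.4 CPM (SD, n = 4; log2 change 2.79, limma adjusted p = 0.0181), Cp from 91.8 ± 12.3 to 161.4 ± 26.6 CPM (log2 change 0.80, limma adjusted p = 0.0112), and Fgg rose by 0.70 (limma adjusted p = 0.0277). The injury count was 3 without wild-type replicate 1 or 4 or double-mutant replicate 2, 4 without wild-type replicate 3 or double-mutant replicate 1 or 3, and 5 without Rhbdf2-/- replicate 3. The acute phase count was 2 without wild-type replicate 1 or 4 or double-mutant replicate 2 or 3, and 3 without wild-type replicate 2 or double-mutant replicate 1. Under the 2 groups alone, library weights and voom the injury count was 5, 18 and 4 and the acute phase count 6, 8 and 3.

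The counts of matrix and proliferation genes depended on replicate 4 and on the fit. Of 32 matrix and myofibroblast genes, 1 rose (3.12%, where 4.52% of all genes did), the membrane metalloprotease Mmp14 (log2 change 1.20, limma adjusted p = 0.0458). Without replicate 4, 9 rose, where 8.88% of all genes did. With all libraries the median log2 change of the 32 was 0.55. Col1a1, the main chain of collagen I, was at 16.0, 20.6, 24.8 and 30.4 CPM in wild-type and at 81.7, 60.4, 57.5 and 8.48 CPM in double-mutant replicates 1 to 4, so that replicate 4 was the lowest of the 8 (log2 change 0.81, SE 0.56, limma adjusted p = 0.416; 1.51 and limma adjusted p = 0.0159 without replicate 4). Acta2, the actin of myofibroblasts and vessel walls, overlapped at 53.6 to 79.8 CPM in wild-type and 42.2 to 111 CPM in the double mutant (log2 change -0.20, limma adjusted p = 0.612). Of 24 proliferation genes, 2 rose (8.33%, where 4.52% of all genes did), Ccna2 and Birc5, by 0.90 and 0.91 (limma adjusted p = 0.0419 and 0.0466). Without replicate 4, 13 rose and 1 fell, where 8.88% of all genes rose and 4.97% fell. Mki67, the general marker of cycling cells, was at 2.43 to 6.38 CPM in wild-type and at 13.3, 16.6, 16.9 and 4.41 CPM in the double mutant (log2 change 1.41, limma adjusted p = 0.0589; 1.81 and limma adjusted p = 0.00551 without replicate 4). Mmp14, Col1a1, Acta2 and Mki67 were chosen after their values were seen. The call of Mmp14 was lost without any 1 of the wild-type or Rhbdf2-/- libraries, without double-mutant replicate 1, 2 or 3 and without Fcgr2b-/- replicate 1, and the matrix count was 5 without Fcgr2b-/- replicate 4. The proliferation count was 0 without any 1 of the wild-type libraries, double-mutant replicate 1, 2 or 3 or Rhbdf2-/- replicate 1 or 3, 1 without Fcgr2b-/- replicate 3 or Rhbdf2-/- replicate 2 or 4, 4 without Fcgr2b-/- replicate 1 and 6 without Fcgr2b-/- replicate 2. With library weights 22 of the 32 matrix genes and 17 of the 24 proliferation genes were called higher, where 14.3% of all genes were, and voom called 0 of either.

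Genes of the proximal tubule were lower in the double mutant, a few of them past the threshold. Of 24 proximal tubule markers, 3 fell (Cubn, Slc22a6 and Pck1), 0 rose and 21 were not called, where 2.77% of all genes fell. All 24 had a negative log2 change, with a median of -0.44. In 13 of them every double-mutant library lay below every wild-type library, as in 11.3% of all genes. Averaged over the list on log2(CPM + 1), wild-type libraries were at 9.54 to 9.74 and double-mutant replicates 1 to 4 at 9.20, 9.08, 8.95 and 9.4. Cubn, the endocytic receptor cubilin, was at 379.5, 305.1, 352.6 and 456.7 CPM in wild-type and at 218.9, 214.2, 152.4 and 248.1 CPM in the double mutant (log2 change -0.85, SE 0.17, limma adjusted p = 0.0159). Pck1, the rate-limiting enzyme of gluconeogenesis, was at 3478, 2303, 2306 and 2480 CPM in wild-type and at 1087, 1355, 956.8 and 1317 CPM in the double mutant (log2 change -1.16, SE 0.33, limma adjusted p = 0.0474). In both genes all 4 double-mutant libraries lay below wild-type, replicate 4 among them, as the rule that picked these genes required. Lrp2, the partner of cubilin, overlapped at 2330 to 3306 CPM in wild-type and 1595 to 2562 CPM in the double mutant (log2 change -0.38, limma adjusted p = 0.358). The phosphate carrier Slc34a1 and the glucose carrier Slc5a2 had no overlap and were not called, at log2 changes of -0.63 and -0.79 (limma adjusted p = 0.0848 and 0.0504); Lrp2, Slc34a1 and Slc5a2 were chosen after their values were seen. Kap, an androgen-regulated protein of the proximal tubule, was at 6068 to 8695 CPM in wild-type and 4583 to 8581 CPM in the double mutant (log2 change -0.28, SE 0.30, limma adjusted p = 0.623). The count of falls was 6 without double-mutant replicate 4, where 4.97% of all genes fell. It was 0 without wild-type replicate 1 or 4 or double-mutant replicate 3. It was 1 without wild-type replicate 2 or 3, double-mutant replicate 2 or Rhbdf2-/- replicate 2 or 3, 6 without Fcgr2b-/- replicate 2 or 4 and 8 without Fcgr2b-/- replicate 3. It was 11, 19 and 1 with the 2 groups alone, library weights and voom, where 5.46%, 17.6% and 1.97% of all genes fell. With median centring it was 1, where 2.01% of all genes fell.

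Solute carriers of the tubule gave 5 falls among 41 (0 rises, median log2 change -0.36), where 2.77% of all genes fell. Without replicate 4 they gave 8 falls, where 4.97% of all genes fell. Slc16a14, an orphan carrier of the monocarboxylate family, was at 76.1, 50.5, 48.6 and 67.4 CPM in wild-type and at 13.4, 17.7, 15.4 and 25.5 CPM in double-mutant replicates 1 to 4, or 29.7% of the wild-type mean (log2 change -1.71, SE 0.34, limma adjusted p = 0.0147). Slc4a4, the sodium bicarbonate cotransporter, was at 1950, 1534, 1569 and 1580 CPM in wild-type and at 930.6, 949.5, 867.1 and 1205 CPM in the double mutant (log2 change -0.75, SE 0.18, limma adjusted p = 0.0229). The amino acid carrier Slc7a8, the glucose carrier Slc2a2 and the organic anion carrier Slc22a6 stood at 61.4%, 62.6% and 65.7% of their wild-type means (log2 changes -0.69, -0.66 and -0.62, limma adjusted p = 0.0172, 0.0368 and 0.0443). None of these 5 carriers overlapped between the groups. The count was 0 without wild-type replicate 1 or 4, 1 without double-mutant replicate 2 or 3, 3 without wild-type replicate 2 or 3, double-mutant replicate 1 or Rhbdf2-/- replicate 3, 8 without Fcgr2b-/- replicate 3 and 9 without Fcgr2b-/- replicate 4. It was 16, 21 and 4 with the 2 groups alone, library weights and voom, where 5.46%, 17.6% and 1.97% of all genes fell. In addition 2 carriers rose with library weights, where 14.3% of all genes did.

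Outside these lists, F5, coagulation factor V, fell from 32.5, 25.0, 29.9 and 26.9 CPM to 11.9, 15.0, 7.54 and 13.4 CPM (log2 change -1.22, SE 0.16, limma adjusted p = 0.00308). Acnat1, an acyl-CoA amino acid transferase, fell from 44.2 ± 1.98 to 25.6 ± 1.32 CPM (SD, n = 4; log2 change -0.76, SE 0.10, limma adjusted p = 0.00385), with replicate 4 at 25.4 CPM in the midst of the other three at 24.0 to 27.2 CPM. Pvalb, parvalbumin of the early distal convoluted tubule, had the deepest fall under the naming rule, from 40.4, 31.9, 36.2 and 37.3 CPM to 1.70, 8.51, 14.4 and 22.3 CPM (log2 change -1.93, SE 0.44, limma adjusted p = 0.0212). It was the 1 gene called among 11 markers of the distal convoluted tubule. Of the 11, 2 fell without replicate 4, where 4.97% of all genes did. With the 2 groups alone, library weights and voom 0, 8 and 1 fell, where 5.46%, 17.6% and 1.97% of all genes did. The carboxylesterase Ces2b, the xylosyltransferase Xylt1, the copine Cpne4, the potassium channel Kcnj12, the scaffold Dlg2 and the amino acid carrier Slc38a4 also fell, by 1.40, 0.87, 0.87, 0.84, 0.80 and 0.79 on the log2 scale. Ces2b was the weakest of these (limma adjusted p = 0.0498, and 0.0765 without replicate 4). In the thick ascending limb 2 of 12 markers rose, the tight junction claudins Cldn16 and Cldn19 (log2 changes 0.65 and 0.54, limma adjusted p = 0.0209 and 0.0426), while Umod overlapped (log2 change 0.03, limma adjusted p = 0.934; -0.02 without replicate 4). Neither claudin was called without wild-type replicate 4 or double-mutant replicate 1 or 2. With voom 1 of the 12 markers rose, while with library weights 3 rose and 2 fell, where 14.3% and 17.6% of all genes did. Adsl, an enzyme of purine synthesis chosen after its values were seen, fell in all 4 libraries, to 42.0, 38.3, 42.2 and 41.5 CPM from 49.9 to 58.9 CPM (log2 change -0.40, SE 0.06, limma adjusted p = 0.00626).

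**Figure D4:**
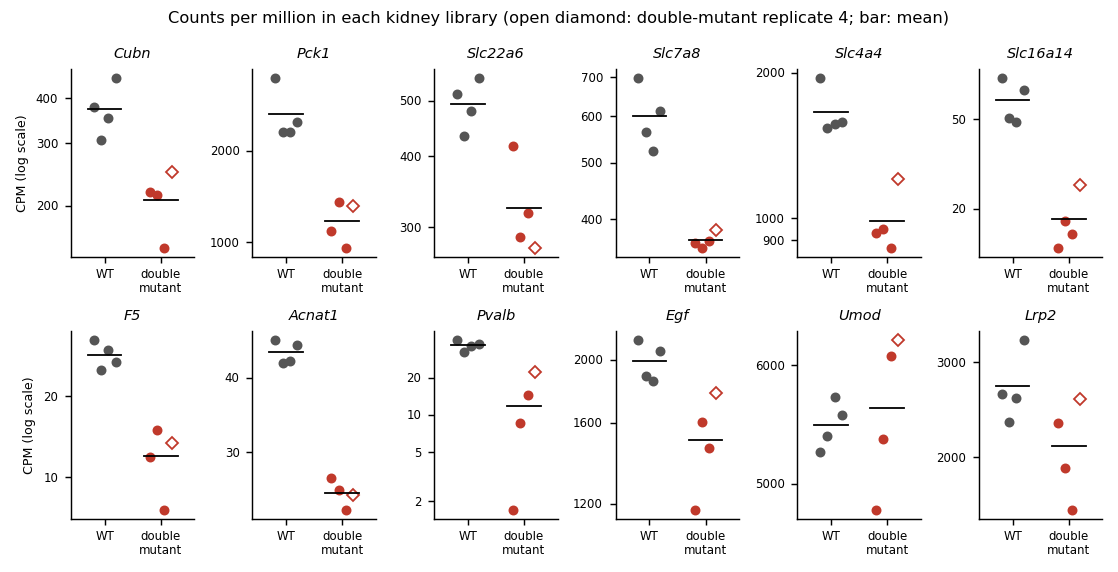
CPM on a log axis for 12 genes of the nephron in 4 wild-type and 4 double-mutant libraries, with a bar at each group's mean and an open diamond for double-mutant replicate 4. The first 9 genes fell with no overlap, replicate 4 included. For Cubn, Pck1, Slc16a14, F5, Acnat1 and Pvalb the lack of overlap followed from the rule that picked them. Egf, Umod and Lrp2 were not called.

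In several lists 0 genes were called in either direction by limma with all libraries: principal cells of the collecting duct, intercalated cells, podocytes, endothelial cells, juxtaglomerular and mural cells, red cells and platelets, adipocytes, basement membrane, fatty acid oxidation, the mitochondrially encoded respiratory chain, and the EGF receptor with its ligands. Of the 138 genes of these lists and the B and plasma cell list, 15 had an unadjusted limma p below 0.05, where 2932 of all 12315 genes did. Voom called 0 of the 138, where it called 479 of all genes. Without double-mutant replicate 4 these lists had 4 calls, 1 each in the podocyte, endothelial, red cell and platelet, and EGF receptor lists. With the 2 groups alone they had 1 gene higher and 5 lower, where 3.38% and 5.46% of all genes were. With library weights they had 9 higher and 24 lower, where 14.3% and 17.6% of all genes were. With library weights the intercalated cell list had 5 of 9 lower, fatty acid oxidation 4 of 22, the mitochondrially encoded chain 4 of 13 and the EGF receptor list 3 of 11. The lists' median log2 changes ranged from -0.75 in adipocyte markers to 0.00 in the EGF receptor list. A further 5 lists, of metabolism and stress, had 1 called gene each: the nuclear respiratory chain (Cox5a, -0.36), the cytochromes P450 (Cyp4f14, -0.64), the renin-angiotensin peptidases (Anpep, -0.55), gluconeogenesis (Pck1, as above) and the NRF2 targets (Slc7a11, 1.11). Cox5a, Cyp4f14, Anpep and Slc7a11 were named after their values were seen. The numbers are log2 changes, and of all genes 4.52% rose and 2.77% fell. Without replicate 4, gluconeogenesis had 5 falls of 14 and the nuclear chain 3 of 31, where 4.97% of all genes fell, and the other 3 lists had 1 call each. With library weights gluconeogenesis had 11 falls of 14, the nuclear chain 19 of 31 and the peptidases 6 of 10, where 17.6% of all genes fell. In the same fit the cytochromes had 3 rises and 4 falls of 24 and the NRF2 targets 1 rise and 2 falls of 20. These shares are near or below those of all genes, of which 14.3% rose and 17.6% fell.

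The shedding pathway that Rhbdf2 serves was described by its machinery, its ligands and its substrates. Of 11 genes of the iRhom2 and ADAM17 machinery, 1 fell and 0 rose, where 2.77% of all genes fell and 4.52% rose. Without replicate 4, 2 rose and 1 fell, where 8.88% and 4.97% of all genes did. With library weights 2 rose and 3 fell, where 14.3% and 17.6% of all genes did. Timp3, the inhibitor of ADAM17, was at 143.4, 125.5, 136.2 and 114.1 CPM in wild-type and at 85.6, 88.5, 79.3 and 60.6 CPM in double-mutant replicates 1 to 4 (log2 change -0.73, SE 0.16, limma adjusted p = 0.018). The groups did not overlap, and Timp3 was not called without wild-type replicate 1 or double-mutant replicate 3. Adam17 was at 48.3 to 53.2 CPM in wild-type and at 61.2, 68.1, 65.7 and 53.3 CPM in the double mutant (log2 change 0.27, SE 0.10, limma adjusted p = 0.12). Hbegf, the ligand HB-EGF, was at 9.34 to 14.7 CPM and 8.71 to 15.3 CPM (log2 change 0.09, SE 0.17, limma adjusted p = 0.797; -0.03 without double-mutant replicate 1). Egf was at 1857 to 2147 CPM in wild-type and at 1173, 1606, 1460 and 1779 CPM in the double mutant, with no overlap and no call (log2 change -0.42, SE 0.24, limma adjusted p = 0.313). Egfr was at 66.1 to 81.3 CPM and 50.4 to 70.4 CPM (log2 change -0.29, SE 0.11, limma adjusted p = 0.112). Of 22 substrates of ADAM17, 5 rose (22.7%, against 4.52% of all genes), Vcam1, Ptprc, Cd44, Tnfrsf1b and Tnf, and 1 fell, the ageing-related Kl of the distal tubule (log2 change -0.56, limma adjusted p = 0.041); 12 rose without replicate 4, where 8.88% of all genes did. Ptprc marks all leukocytes and rose by 1.95 (limma adjusted p = 0.0147), so the 5 rises include genes that are markers of the cells described above. Of 20 early genes of EGF receptor and ERK signalling, 3 rose (Junb, Fos and Dusp5) and 1 fell (Spry4), where 4.52% of all genes rose and 2.77% fell. Without replicate 4, 6 rose, where 8.88% of all genes did. Fos and Junb, with Atf3 and Btg2, also stand on the list of genes that tissue handling induces, of which 4 of 22 rose (4.52% of all genes did). Fos was at 0.648, 1.58, 0.715 and 0.661 CPM in wild-type and at 5.09, 6.19, 3.01 and 1.09 CPM in the double mutant (log2 change 1.23, SE 0.33, limma adjusted p = 0.0364). The substrate count was 1 without wild-type replicate 1 or 4 or double-mutant replicate 2 or 3, 2 without wild-type replicate 3 or double-mutant replicate 1, 3 without wild-type replicate 2 and 8 without Fcgr2b-/- replicate 4. The early gene count of rises was 0 without wild-type replicate 1, 3 or 4 or double-mutant replicate 1, 2 or 3, 1 without Rhbdf2-/- replicate 3 and 5 without Fcgr2b-/- replicate 4, and the handling count was 1 without wild-type replicate 1 or 4 or double-mutant replicate 1, 2 or 3, 2 without wild-type replicate 3 and 7 without double-mutant replicate 4. Under the 2 groups alone, library weights and voom the substrates had 3, 12 and 2 rises, the early genes 0, 9 and 1 and the handling genes 2, 10 and 2. Of all genes 3.38%, 14.3% and 1.92% rose in these fits. Timp3 and Kl were chosen after their values were seen.

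To see where the double mutant differs from kidney lacking Fcgr2b alone, the 4 double-mutant libraries were also set against the 4 Fcgr2b-/- libraries in the same fit. This contrast called 5578 genes (45.3%), 2769 higher (22.5%) and 2809 lower (22.8%) in the double mutant. Without replicate 4 it called 4855 (39.4%), 2384 higher (19.4%) and 2471 lower (20.1%). Fcgr2b-/- against wild-type, which shares libraries with both other contrasts, called 7422 (60.3%; 29.5% higher and 30.8% lower). In the injury list that contrast had 26 of 27 genes higher and a median log2 change of 2.27, beside 8 of 27 and 0.48 for the double mutant. The injury list was lower than in Fcgr2b-/- kidney in 25 of 27 genes and higher in 1, the acute phase list lower in 9 of 11 and higher in 1, and the matrix list lower in 24 of 32 and higher in 0. Without replicate 4 these lists had 24, 9 and 23 genes lower. Lcn2 had a mean of 457.9 ± 298.7 CPM in Fcgr2b-/- and 23.2 ± 23.0 CPM in the double mutant (SD, n = 4; log2 difference -4.51, SE 0.62, limma adjusted p = 6.24e-05), against 2.99 ± 1.63 CPM in wild-type. Havcr1 was at 304.2, 50.1, 186.6 and 104.3 CPM in Fcgr2b-/- replicates 1 to 4, above the 0.629 to 36.8 CPM of the double mutant (log2 difference -4.02, limma adjusted p = 0.000446). Kap was at 182.5 to 472.8 CPM in Fcgr2b-/- and at 4583 to 8581 CPM in the double mutant (log2 difference 4.57, limma adjusted p = 2.3e-07). Of the 24 proximal tubule markers 17 were higher than in Fcgr2b-/- kidney and 0 lower, and 14 without replicate 4. Of 22 macrophage markers 4 were lower in the double mutant than in Fcgr2b-/- and 0 higher, where 22.8% of all genes were lower and 22.5% higher. The median log2 difference of these markers was -0.77. Without replicate 4, 2 were lower and 1 higher, with a median of -0.28. Of 14 T and NK cell markers 0 were called by limma in either direction. Of the 14, 2 had an unadjusted limma p below 0.05, where 6479 of all 12315 genes did, and 0 were called by voom. Without replicate 4, 11 of these 14 were higher in the double mutant and 0 lower.

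Most interferon-induced GTPases were higher in the double mutant than in Fcgr2b-/- kidney. Of the 10 interferon-induced GTPases, 8 were higher in the double mutant than in Fcgr2b-/- kidney and 0 lower (22.5% of all genes were higher), with a median log2 difference of 1.67. Against wild-type, Fcgr2b-/- kidney had 0 of the 10 higher and 1 lower, with a median log2 change of 0.34, beside 6 higher and a median of 2.12 for the double mutant. Of 32 type I interferon genes, 9 were higher and 0 lower, with a median of 0.51, and of 20 class I genes 5 were higher and 0 lower, shares near that of all genes. Without replicate 4 the counts of higher genes were 10 of 10 GTPases, 21 of 32 type I interferon genes and 18 of 20 class I genes, where 19.4% of all genes were higher. Averaged over the GTPase list on log2(CPM + 1), Fcgr2b-/- libraries ranged from 3.205 to 4.354. Double-mutant replicates 1 to 3 were at 5.18, 6.24 and 7.33, and replicate 4 lay within the Fcgr2b-/- range at 3.61. List counts with another library left out are not given for this contrast. Of 9 class II genes 0 were called against Fcgr2b-/- by limma with all libraries and 0 by voom. At an unadjusted limma p below 0.05 there were 0 of the 9, where 6479 of all 12315 genes were. Without replicate 4, 9 were higher. Ifit1 was at 21.1, 10.3, 17.2 and 14.3 CPM in Fcgr2b-/- and at 45.6, 42.9, 38.7 and 16.9 CPM in the double mutant (log2 difference 1.10, SE 0.32, limma adjusted p = 0.0113). Irgm2 was at 46.0, 21.9, 34.3 and 30.7 CPM in Fcgr2b-/-, near the 28.2 to 35.5 CPM of wild-type, and at 121.4, 245.2, 576.4 and 37.2 CPM in the double mutant (log2 difference 2.28, SE 0.56, limma adjusted p = 0.00447). Pigr was at 79.3 to 181.6 CPM in Fcgr2b-/- and at 176.9 to 1992 CPM in the double mutant (log2 difference 2.83, SE 0.51, limma adjusted p = 0.000505). Clec9a was at 1.44 to 4.15 CPM in Fcgr2b-/- and at 3.81 to 20.1 CPM in the double mutant (log2 difference 1.29, limma adjusted p = 0.00943). Herc6, an interferon-induced ligase, and H2-Q6, a class I gene, both chosen after their values were seen, were higher than wild-type by 1.29 and 1.35 and higher than Fcgr2b-/- by 1.09 and 1.71 on the log2 scale (limma adjusted p = 0.0115 and 0.0481, then 0.00207 and 0.00252).

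Other genes the naming rule picked because they differed from both groups follow, with Rph3a the largest of them. Higher than both were Col23a1, a transmembrane collagen, the cathepsin Ctso, the vesicle protein Rph3a, the G protein regulator Rgs6 and Cytip, a cytohesin partner of leukocytes, with log2 changes against wild-type of 0.41, 0.42, 0.99, 0.39 and 0.39 and log2 differences from Fcgr2b-/- of 0.94, 0.63, 1.37, 0.55 and 0.51. Ctso was at 54.2 to 60.6 CPM in wild-type, 44.6 to 57.4 CPM in Fcgr2b-/- and 70.5, 79.8, 95.3 and 68.8 CPM in double-mutant replicates 1 to 4, with no overlap (limma adjusted p = 0.0198 and 0.000111). Lower than both were Jup, plakoglobin of cell junctions, the ERK antagonist Spry4, the ion channel Tmem63b, the myosin chaperone Unc45a, the Golgi protein Cog1 and ezrin (Ezr), which links microvilli to actin. Jup was at 192.5 to 205.8 CPM in wild-type, at 232.8 to 258.0 CPM in Fcgr2b-/- and at 178.2, 157.0, 153.0 and 145.0 CPM in the double mutant (log2 change -0.32 against wild-type and -0.64 against Fcgr2b-/-, limma adjusted p = 0.0137 and 4.29e-06). Spry4 was at 8.02 to 9.70 CPM, 11.2 to 14.1 CPM and 5.72 to 7.51 CPM in the 3 groups (log2 changes -0.37 and -0.79, limma adjusted p = 0.0407 and 3.57e-05; against wild-type 0.0617 without replicate 4). Replicate 4 did not lie nearer to wild-type than the other three in Jup or Spry4, where it was the lowest.

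**Figure D5:**
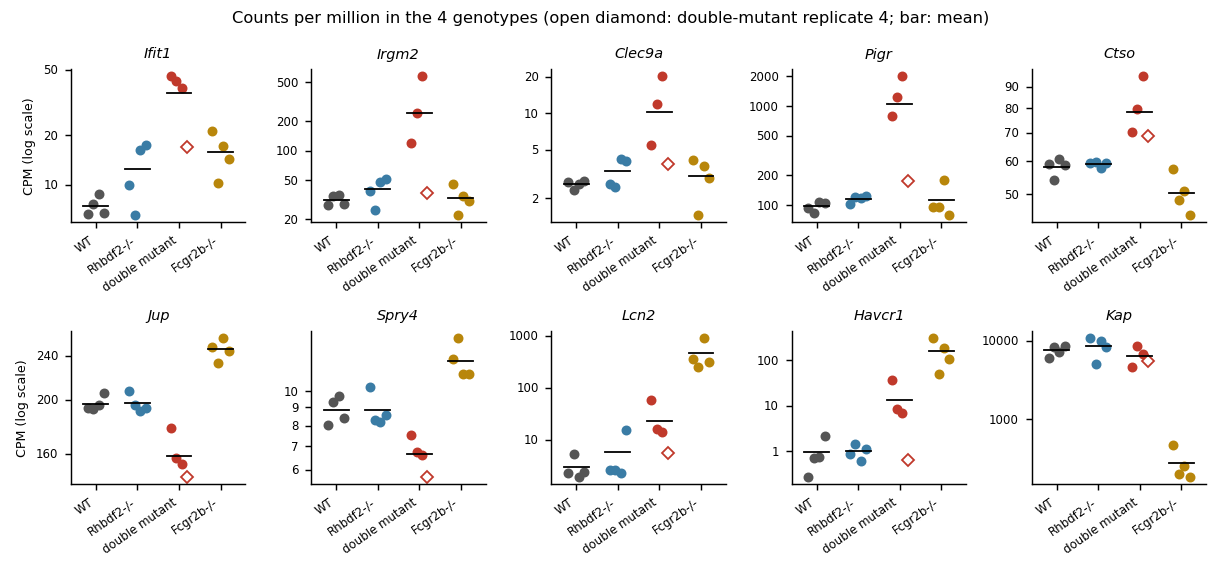
CPM on a log axis for 10 genes in the 4 kidney genotypes, 4 libraries each, with a bar at each mean and an open diamond for double-mutant replicate 4. The upper row shows genes higher in the double mutant than in wild-type and in Fcgr2b-/-, and the lower row Jup and Spry4, which were lower than in both, beside Lcn2, Havcr1 and Kap, whose double-mutant values lie far from those of Fcgr2b-/-.

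The surroundings of the targeted genes were described too, on chromosome 1 for Fcgr2b. Within 5 Mb of its start 18 of 65 genes were called (27.7%, against 7.29%), 13 higher and 5 lower, and within 1 Mb 8 of 32 (25%). Around Rhbdf2 on chromosome 11 the figures were 16 of 162 within 5 Mb (9.88%) and 3 of 45 within 1 Mb (6.67%). Some of the 18 are immune genes described above, such as Fcgr3 and Ifi204. Ifi202b, an interferon-inducible DNA-binding protein at chromosome 1, shared the smallest adjusted p of the comparison with 6 genes, F5, Clec2d and Cd47 among them. It was at 1.18, 1.43, 1.49 and 1.08 CPM in wild-type and at 14.7, 14.6, 7.71 and 6.43 CPM in double-mutant replicates 1 to 4 (log2 change 2.29, SE 0.28, limma adjusted p = 0.00308). Its mean was 13.1 CPM in Fcgr2b-/- and 1.66 CPM in Rhbdf2-/- kidney. Apoa2, an apolipoprotein, was at 3.00 to 3.62 CPM in wild-type and at 0.186, 0.412, 1.72 and 0.523 CPM in the double mutant (log2 change -1.38, SE 0.21, limma adjusted p = 0.00626), with means of 0.154 CPM in Fcgr2b-/- and 3.10 CPM in Rhbdf2-/-. For Ifi202b and Apoa2, replicate 4 lay with the other double-mutant libraries. Neither Clec2d nor Cd47 lies within 5 Mb of Fcgr2b or Rhbdf2. Clec2d, a lectin ligand of NK cell receptors, and Cd47, the signal that restrains phagocytes, rose by 0.99 and 0.67 with no overlap. Replicate 4 was at 46.8 and 86.3 CPM for Clec2d and Cd47, against highest wild-type values of 23.9 and 67.6 CPM. Ifi202b, Apoa2, Clec2d and Cd47 were chosen after their values were seen.

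Values in sorted macrophages (3 libraries per genotype, normalized apart from kidney) show which of the rises are seen in those samples. No test was made of them here. Tubule transcripts were present in them too. Umod was at 972 to 4570 CPM in wild-type and 258 to 1545 CPM in the double mutant. Slc34a1 was at 203.7 to 659.9 CPM and 116.6 to 184.6 CPM. The part of this in the other values was not tested. Of 34 type I interferon genes measured there, 18 had every double-mutant library above every wild-type library (52.9%, against 17.4% of all 10523 genes), and 0 below. Of 13 GTPases 0 lay above, of 21 class I genes 6 lay above, and of 10 class II genes 0 lay above and 3 below (15% of all genes lay below). Ifit1 was at 50.1 to 114 CPM in wild-type and 131.5 to 138.8 CPM in double-mutant macrophages. Irgm1 overlapped, at 169.5 to 472.4 CPM (median 171.5) and 238.4 to 376.9 CPM (median 313.2), and 1 wild-type library made the overlap. In Iigp1, Gbp2, Gbp3 and Gbp6 too the wild-type median lay below every double-mutant library. In Irgm2, Gbp5, Gbp7 and Gbp9 it did not. H2-Ab1, which rose in whole kidney, was at 12899 to 16487 CPM in wild-type and 3514 to 11878 CPM in double-mutant macrophages, and Ciita lay below wild-type too. H2-Aa, H2-Eb1, H2-DMb1 and Cd74, which also rose in kidney, overlapped and had higher medians in the double mutant (21649 and 28056 CPM for H2-Aa). Lyz2 was at 2442 to 5217 CPM and 10922 to 13844 CPM, and Fcgr3 overlapped at 564.6 to 779.8 CPM and 671.4 to 834.6 CPM. Ifi202b was at 0.0906 to 0.585 CPM in wild-type, 0.118 to 0.191 CPM in Rhbdf2-/-, 151 to 196.7 CPM in Fcgr2b-/- and 243.5 to 252.7 CPM in double-mutant macrophages.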

How the data were processed

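RNA of 16 whole kidneys and 12 sorted macrophage samples of mouse was sequenced as single reads. Per the file headers, the authors deposited log2 CPM for each library, for genes they had already filtered. The authors' deposited table also holds, per contrast, log2 fold changes, p-values with FDR, and an F statistic, a score that was not used. The submitters' processing notes name the builds mm10 and GRCm38; the aligner, counting program, annotation and strand were not given there, which leaves overlapping, antisense and near-identical genes uncertain.

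CPM is the antilog of the deposited value. With the prior count removed, 100% of low values were whole reads (tolerance 0.1 read); on these reads limma voom called 479 genes. A count of 3 reads corresponded to 0.0677 to 0.106 CPM in kidney, for counting error only. log2(CPM + 1) of all 16 kidney libraries was fitted with limma 3.58.1 (R 4.3.3, trend), 1 mean per genotype, and p-values were adjusted by Benjamini-Hochberg over 12315 genes and called below 0.05. This scale understates changes of low genes. In data simulated for this comparison (12315 genes, 200 changed), 93% of 2-fold and 100% of 4-fold changes were recovered. The simulation gave every gene a dispersion of 0.04 and made no library stand apart. Many immune genes spread more widely between the double-mutant libraries, so these shares do not hold for them. Cxcl9 and Ccl5, for example, changed by more than 4-fold and were not called.

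Named were Rhbdf2 and Fcgr2b; the 12 largest rises and falls among called genes without overlap whose mean log2 CPM reached 1 (predicted, clone and immunoglobulin names left out); up to 5 called members of each of 44 lists with at least 2 calls; Hbegf, Tnf, Egfr, Egf, Adam17, Havcr1, Lcn2, Ccl2, Kap and Lyz2; and up to 6 genes each way called against both wild-type and Fcgr2b-/-. Of 783 list genes 682 were measured, 5 through RefSeq synonyms. The comparison, members and lists were chosen with earlier results of these data known. Alternatives were another pseudocount, a filter on low values, a fit of the 2 groups alone, median centring, library weights, voom, and each library left out; voom without double-mutant replicate 4 was added after seeing the data. Some genes that this rule picks are not reported here.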

Additional observations from a re-analysis of the deposited data

Results flagged for a closer look

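In 25 of 332 groups of 4 libraries (7.53%) the highest or lowest library stood apart, its gap to the nearest other library, as a share of the group's range, exceeding Dixon's 95% critical value; chance gives about 5%. Of these, 12 are double-mutant replicate 4. It was the lowest double-mutant library for Csf3r at 1.41 CPM, Cd44 at 3.70 CPM, Ifit1 at 16.9 CPM, Ifi204 at 5.37 CPM, Tlr13 at 5.33 CPM and Trem2 at 0.771 CPM. It was also the lowest for Sox9 at 0.841 CPM, Col1a1 at 8.48 CPM, Isg20 at 1.58 CPM, Cmpk2 at 23.8 CPM and Mmp14 at 11.2 CPM, and it was the highest for Slc5a2 at 423 CPM. Double-mutant replicate 2 was the lowest for Adsl at 38.3 CPM.

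Among wild-type libraries, replicate 1 was the lowest for Clec4a1 at 1.39 CPM and Gbp7 at 2.24 CPM, and the highest for Xylt1 at 12.9 CPM and Slc4a4 at 1950 CPM. Replicate 2 was the highest for Nfkbia at 37.1 CPM, Fos at 1.58 CPM and Tlr3 at 15.1 CPM. Replicate 3 was the lowest for Acta2 at 53.6 CPM and the highest for Csf1r at 92.5 CPM, Gbp5 at 6.53 CPM, H2-Ob at 4.01 CPM and Ciita at 1.89 CPM.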

How the results depend on the processing

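Against wild-type, 898 genes were called, 557 higher and 341 lower. With library weights, which gave double-mutant replicate 4 a weight of 0.227, the counts were 3934, 1763 and 2171; with voom 479, 237 and 242; with voom without double-mutant replicate 4 1658, 1050 and 608; and with the 2 groups alone 1088, 416 and 672. Leaving out each of the 16 libraries in turn gave 121 to 1706 calls, 93 to 1094 higher and 28 to 612 lower. The cause was not tested, except that these fits hold fewer libraries. Against Fcgr2b-/-, 5578 genes were called, 3550 with those 2 groups alone and 4855 to 5902 with a library left out. Of 127 named genes called against wild-type, 0 changed direction in any of the 24 alternatives that tested them (the filter left 9 untested). Many lost their call: 83 without wild-type replicate 1 and 83 without replicate 4, 77 and 70 without double-mutant replicate 2 and 3, 44 without wild-type replicate 3, 40 without double-mutant replicate 1, 44 with voom and 34 with the 2 groups alone or without wild-type replicate 2. The sign turned for Hbegf without double-mutant replicate 1 (-0.03), for Umod with library weights (-0.02), without double-mutant replicate 3 (-0.01) or 4 (-0.02) and with voom without double-mutant replicate 4 (-0.03), for Sox9 without replicate 4 (0.03, and 0.06 with voom), and for Igj without double-mutant replicate 3 (-0.06), all uncalled. With a library left out these 4 ranged from -0.03 to 0.22 (Hbegf), -0.02 to 0.10 (Umod), -0.14 to 0.03 (Sox9) and -0.06 to 0.81 (Igj). Another pseudocount, the filter and median centring kept the counts within 1.5 times. No paired analysis was possible because the titles share no replicate numbers across genotypes. Depth limits genes near the floor of 3 reads.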
